A study of Mus musculus with 12 samples.

Results

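Endothelial genes were followed in the newborn mouse uterus and vagina: Pecam1, Cdh5, Kdr, Flt1, Tek, Tie1, Emcn, Esam, Cldn5 and Egfl7, 10 genes named for their use as markers of the cells that line blood vessels. Every probe that the platform annotation gives to 1 of these symbols was taken, 17 probes in all, among 19057 genes with a symbol on the array. Of the 10 genes, 9 had a probe above the array background often enough to be tested, among 11152 genes tested. The exception was Kdr, whose 2 probes were above background on 0 of 12 arrays.

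RNA came from female mice of a strain that mixes CD-1, S129/5 and C57BL/6 at postnatal day 3, and each sample was a pool of 3 mice, with 4 pools in each of 3 groups. Both tissues of the heterozygous animals, cHet uterus and cHet vagina, came from animals with the genotype Trp63 flox/wt ; Pax2-cre. The vagina alone was taken from cKO animals, whose label reads Trp63 flox/floxt ; Pax2-cre. Trp63 encodes a transcription factor of stratified epithelia. All 3 groups carry the Pax2-cre transgene and a floxed Trp63 allele, so there was no group without cre, and no cKO uterus was measured. The sources used here do not give which cells the Pax2-cre transgene reached or which exons are floxed. The p-values below measure the spread between pools.

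Endothelial cells are held together by adherens and tight junctions made of proteins such as the cadherin of Cdh5 and the claudin of Cldn5. Their growth and survival depend on vascular endothelial growth factor (VEGF), read by the receptor tyrosine kinases of Kdr and Flt1, and on angiopoietins, read by the receptor of Tek with its partner Tie1. In growing reproductive organs, vessels extend through the mesenchyme that surrounds the epithelial tube. Transcription factors of the ETS family bind DNA around a GGAA core and are known regulators of many endothelial promoters.

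Promoter sequences, from 250 bases before to 50 bases after the annotated start, were taken from RefSeq on build GRCm38.p6, where 7 of the 10 genes had an entry. The 3 shown belong to members with an entry that were lower in the vagina than in the uterus, and they differ in how many ETS cores they hold. Capitals mark GGAA or its reverse complement TTCC, and all are written 5′ to 3′ on the strand of the gene. Emcn lies at chr3:137340828-137341127 on the plus strand, Flt1 at chr5:147725962-147726261 on the minus strand, and Cldn5 at chr16:18776597-18776896 on the plus strand.
Emcn: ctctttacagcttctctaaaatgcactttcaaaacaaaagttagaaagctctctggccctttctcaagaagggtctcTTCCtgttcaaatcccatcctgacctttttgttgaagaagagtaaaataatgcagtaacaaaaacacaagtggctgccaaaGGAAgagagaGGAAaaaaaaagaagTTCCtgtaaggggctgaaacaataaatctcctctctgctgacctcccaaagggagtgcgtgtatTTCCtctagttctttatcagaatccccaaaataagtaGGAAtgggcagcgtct
Flt1: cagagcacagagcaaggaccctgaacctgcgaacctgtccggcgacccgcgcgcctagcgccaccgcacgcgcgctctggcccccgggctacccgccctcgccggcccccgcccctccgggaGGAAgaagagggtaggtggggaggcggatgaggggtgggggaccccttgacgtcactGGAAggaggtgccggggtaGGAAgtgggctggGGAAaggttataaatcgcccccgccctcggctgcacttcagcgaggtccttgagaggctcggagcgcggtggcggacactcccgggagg
Cldn5: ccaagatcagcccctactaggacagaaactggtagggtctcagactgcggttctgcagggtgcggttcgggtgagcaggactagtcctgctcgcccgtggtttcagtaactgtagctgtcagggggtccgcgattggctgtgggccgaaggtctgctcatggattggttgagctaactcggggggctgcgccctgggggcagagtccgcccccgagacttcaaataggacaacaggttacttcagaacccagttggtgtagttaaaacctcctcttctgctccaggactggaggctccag
The Emcn promoter held 6 cores, the Flt1 promoter 4 and the Cldn5 promoter 0, counted on both strands. Among the other members with an entry, Kdr had 5 cores, Tek 2 and Tie1 9, and the 3 annotated starts of Egfl7 had 5, 4 and 1. GGAA is frequent: 96% of the 32851 promoters of the same length in the table hold it on either strand, with a median of 3 and with 28.6% holding at least 5. A match is a description of these letters and not a binding site, and Cldn5, with no core here, and Emcn, with 6, were both called lower in the vagina.

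Endothelial genes were lower in the vagina than in the uterus of cHet animals. Of the 9 tested members, 6 passed the test and were lower (Esam, Cldn5, Emcn, Pecam1, Flt1 and Cdh5) and 0 were higher, where 9.17% of all genes tested were called lower. These calls come from a fit without a block. In a fit with the replicate number as a block 8 of 9 were lower, Tek and Egfl7 being added. The share of all genes called lower with that block is not given here. The median difference of the 9 members was -0.80 on the log2 scale, against -0.02 over all genes tested. The pools of the 2 organs did not overlap for 5 members (Flt1, Tek, Emcn, Esam and Cldn5), with the vagina below the uterus, against 10.8% of all genes. Tests were two-sided and made with limma, their p-values were adjusted by Benjamini-Hochberg over the whole set of 11152 genes, and a call needs an adjusted p under 0.05. In bulk tissue, fewer endothelial cells and less RNA per endothelial cell cannot be told apart. All levels are log2 intensities after background correction, given for replicates 1 to 4 in that order, and levels of different probes are not comparable with each other.

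The junction genes held the largest difference among the called members. Esam, an immunoglobulin-type adhesion molecule of endothelial tight junctions, read 10.01, 10.53, 10.27 and 10.32 in cHet uterus, 9.23, 8.72, 9.0 and 9.31 in cHet vagina and 8.70, 8.61, 9.08 and 8.97 in cKO vagina. Every vaginal pool of either genotype lay below every uterine pool, and the vaginal genotypes overlapped. The difference of cHet vagina from cHet uterus was -1.22 (SE 0.17, n = 4 pools a group, limma adjusted p = 4.68e-05), or 2.33-fold lower. It was -1.30 in replicates 1 and 2 and -1.14 in replicates 3 and 4. Cldn5, the claudin that seals endothelial tight junctions, read 6.05, 6.31, 6.50 and 6.97 in cHet uterus, 5.52, 5.30, 5.54 and 5.51 in cHet vagina and 5.37, 5.12, 5.73 and 5.54 in cKO vagina. The uterine pools again stood above all vaginal pools and were spread more widely (SD 0.39) than those of cHet vagina (SD 0.11). Cldn5 was 1.99-fold lower in cHet vagina (-0.99, SE 0.18, limma adjusted p = 0.000845).

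The remaining junction genes, Pecam1 and Cdh5, differed less and their cHet groups overlapped. Pecam1 encodes an adhesion molecule at endothelial contacts that platelets and leukocytes also carry. Its brightest probe read 7.76, 7.24, 7.39 and 7.86 in cHet uterus, 6.32, 6.74, 6.66 and 7.33 in cHet vagina and 6.49, 6.78, 7.10 and 7.00 in cKO vagina. Only cHet vagina replicate 4 reached into the range of the uterus. The difference was -0.80 (SE 0.21, limma adjusted p = 0.0122), or 1.74-fold lower, and the second probe gave -0.71 with groups that did not overlap (limma adjusted p = 0.00380 over the 20675 probes kept). The third Pecam1 probe, above background on 5 of 12 arrays, gave -0.16 (limma adjusted p = 0.615). Without normalization between arrays, the call of Pecam1 was lost. Cdh5, the vascular endothelial cadherin of adherens junctions, read 6.83, 6.70, 5.88 and 6.66 in cHet uterus, 6.01, 5.77, 5.68 and 5.88 in cHet vagina and 5.66, 5.76, 5.63 and 5.59 in cKO vagina. A single uterine pool, replicate 3, fell to the level of cHet vagina, and the other uterine pools were higher than all vaginal ones. Cdh5 was 1.61-fold lower in cHet vagina (-0.68, SE 0.18, limma adjusted p = 0.0118), with -0.59 on its second probe (limma adjusted p = 0.0224 over probes). In replicates 3 and 4 alone, the calls of Pecam1 and Cdh5 were lost, with differences of -0.63 and -0.49.

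**Figure D1:**
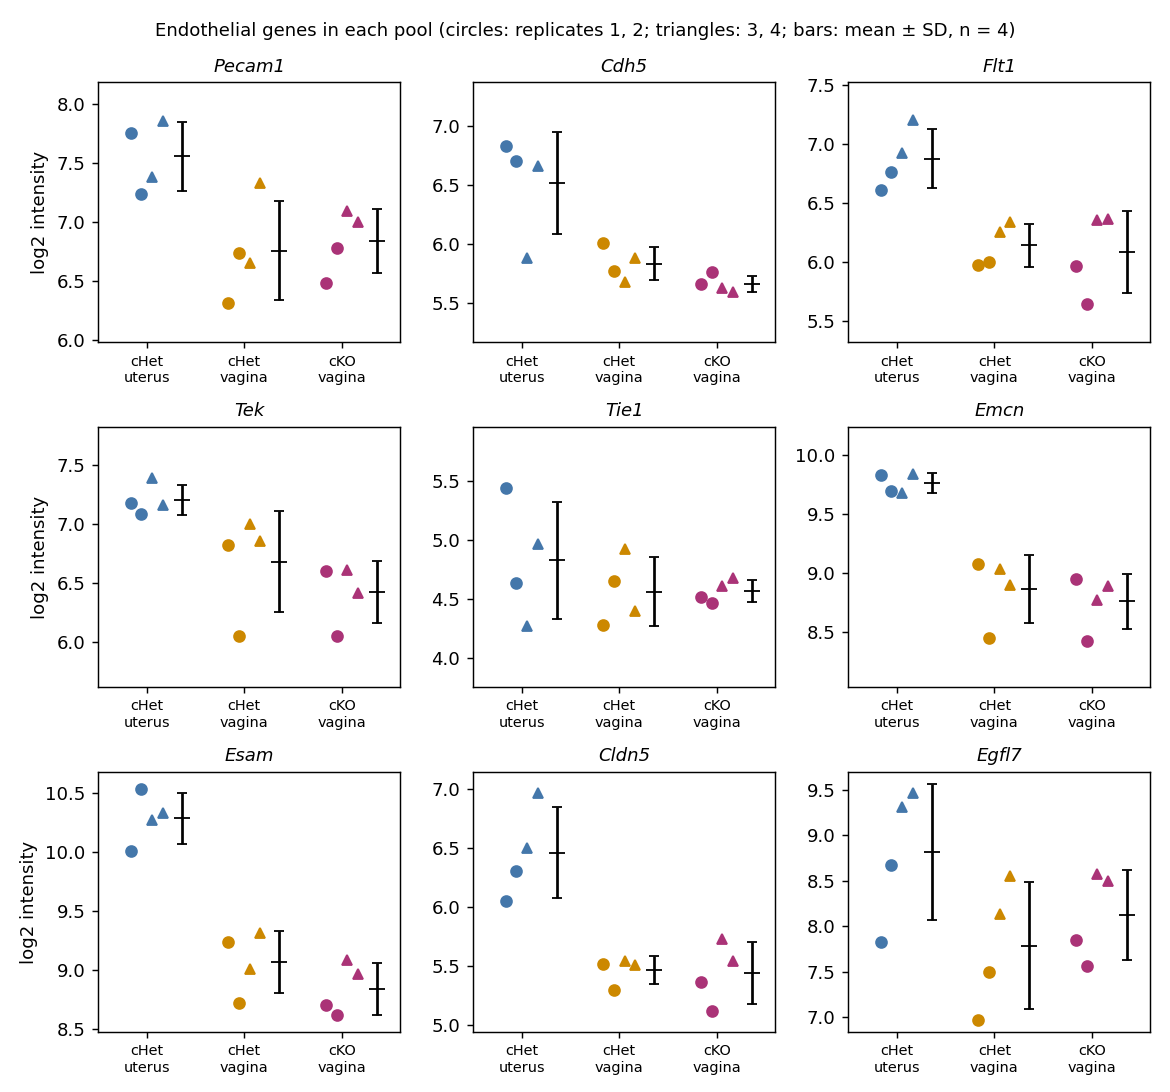
Log2 intensity of the representing probe of each of the 9 tested endothelial genes in every pool of the 3 groups, with a separate vertical scale for each gene. Circles are replicates 1 and 2, triangles replicates 3 and 4, and bars the mean ± SD of 4 pools. Esam, Emcn, Cldn5, Flt1 and Tek show all vaginal pools below all uterine pools, and for no gene do the vaginal genotypes separate.

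Among the receptors, Flt1 was called lower, and Tie1 and Kdr lay near or under background. Tek was not called in the fit of all 12 arrays without a block. Flt1, a VEGF receptor that binds its ligand tightly and limits how much reaches Kdr, read 6.61, 6.76, 6.92 and 7.2 in cHet uterus, 5.97, 6.00, 6.25 and 6.34 in cHet vagina and 5.96, 5.64, 6.36 and 6.36 in cKO vagina. No vaginal pool reached the uterine range. Flt1 was 1.66-fold lower in cHet vagina (-0.73, SE 0.18, limma adjusted p = 0.00780), a call lost in replicates 1 and 2 alone, where the difference was -0.70. Its second probe was above background on 0 of 12 arrays.

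Tek, the angiopoietin receptor, read 7.18, 7.08, 7.39 and 7.17 in cHet uterus, 6.82, 6.05, 7.00 and 6.86 in cHet vagina and 6.61, 6.05, 6.61 and 6.42 in cKO vagina. The organs did not overlap, though cHet vagina replicate 3 came within 0.1 of the lowest uterine pool. The difference of -0.52 (SE 0.19) missed the threshold (limma adjusted p = 0.0737), and it passed with the replicate number as a block (limma adjusted p = 0.0135 with the replicate block). Tek was also called with a block of replicates 1 and 2 against 3 and 4, and without cHet vagina replicate 3. Tie1, an orphan receptor that pairs with Tek, read 5.44, 4.63, 4.27 and 4.96 in cHet uterus, 4.27, 4.65, 4.92 and 4.39 in cHet vagina and 4.51, 4.47, 4.60 and 4.67 in cKO vagina. It was above background on 3, 2 and 4 of the 4 arrays of these groups, all groups overlapped, and its difference was -0.26 (limma adjusted p = 0.463). Both Kdr probes measured between 90.3% and 98.9% of the intensity that an array's probes had to exceed, so no fold was computed for this principal VEGF receptor.

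Emcn and Egfl7 represent the endothelial surface and its secreted matrix. Emcn, a sialomucin of capillary and venous endothelium, read 9.83, 9.70, 9.68 and 9.84 in cHet uterus, 9.08, 8.45, 9.04 and 8.90 in cHet vagina and 8.96, 8.43, 8.77 and 8.89 in cKO vagina. The uterine pools were close together (SD 0.08) and stood above all vaginal pools. Emcn was 1.86-fold lower in cHet vagina (-0.90, SE 0.16, limma adjusted p = 0.000619). Egfl7, a secreted protein that endothelial cells lay into their matrix and whose gene hosts the microRNA miR-126, read 7.82, 8.68, 9.31 and 9.46 in cHet uterus, 6.97, 7.49, 8.13 and 8.55 in cHet vagina and 7.85, 7.56, 8.57 and 8.5 in cKO vagina. In each group the pools numbered 3 and 4 were higher than those numbered 1 and 2, and the organs overlapped. The difference of -1.03 (SE 0.37) missed the threshold (limma adjusted p = 0.0618). It was -1.02 in replicates 1 and 2 and -1.05 in replicates 3 and 4, and it passed with the replicate number as a block (limma adjusted p = 0.000397 with the replicate block). The second Egfl7 probe gave -0.79 (limma adjusted p = 0.122 over probes), and the third was above background on 2 of 12 arrays.

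The cKO vagina, set beside the same uterine pools, was also lower for these genes. Since both comparisons use the same 4 uterine pools, their values are given side by side and their likeness is not a result. Of 9 members 7 were called lower, against 9.45% of all genes, and 7 did not overlap, against 11.2% of all genes. Esam differed by -1.45 (limma adjusted p = 9.38e-06), or 2.72-fold, Cldn5 by -1.02 (limma adjusted p = 0.000723) and Emcn by -1.0 (limma adjusted p = 0.000243), where cHet vagina had -1.22, -0.99 and -0.90. Cdh5 differed by -0.86 (limma adjusted p = 0.00239), Flt1 by -0.79 (limma adjusted p = 0.00469), Tek by -0.78 (limma adjusted p = 0.00812) and Pecam1 by -0.72 (limma adjusted p = 0.0235), where cHet vagina had -0.68, -0.73, -0.52 and -0.80. Egfl7, at -0.70, and Tie1, at -0.26, were not called (limma adjusted p = 0.226 and 0.458). With the replicate block Egfl7 passed (limma adjusted p = 0.00792). The numbers were not taken to pair the pools of this comparison, since those numbered 2 correlated at 0.0743. The call of Pecam1 was lost without cHet uterus replicate 1 or 4 and without cKO vagina replicate 1 or 2. Without normalization between arrays 4 members were called, a setting in which the median of all genes moved to 0.17 and that of the members to -0.51.

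**Figure D2:**
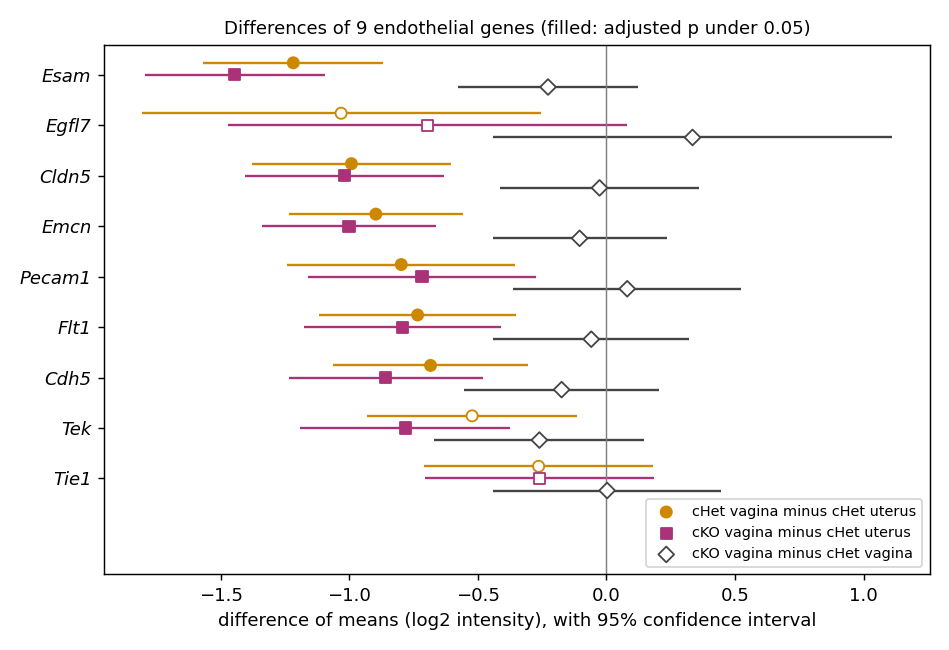
Difference of group means in log2 intensity for the 9 tested endothelial genes, with 95% confidence intervals from the fit over 12 arrays. Filled symbols passed an adjusted p under 0.05. The differences of cHet vagina from cHet uterus run from -1.22 for Esam to -0.26 for Tie1, while all 9 intervals of cKO vagina against cHet vagina include 0.

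Between the vaginal genotypes, 0 of 9 endothelial genes were called by limma, against 0.386% of all genes tested, and the pools of all 9 members overlapped, where 4.33% of all genes did not overlap. At an unadjusted p under 0.05 the count was also 0 of 9, against 7.07% of all genes. The median difference of the members was -0.06, against -0.01 over all genes, and 6 of 9 were negative. Egfl7 had the highest difference of cKO from cHet vagina, 0.33 with a 95% confidence interval from -0.44 to 1.11. The lowest belonged to Tek, -0.26 with an interval from -0.67 to 0.15, and Esam, -0.23 with an interval from -0.58 to 0.12. For Emcn the interval ran from -0.44 to 0.23 around -0.10, and for Cldn5 from -0.42 to 0.36 around -0.03. The remaining members lay between -0.17 (Cdh5) and 0.08 (Pecam1). These intervals bound the differences and do not show that the genotypes had the same level. The probe of the targeted gene did not separate the vaginal genotypes either: Trp63 read between 9.35 and 9.74 in cHet vagina and between 9.07 and 9.91 in cKO vagina (difference -0.06, limma adjusted p = 0.979). Whether that probe lies in the floxed part is not stated by the labels.

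Endothelial genes outside the 10 members were also lower in the vagina. Of 25 further pan-endothelial genes 21 were tested, and in cHet vagina against cHet uterus 11 were called lower and 0 higher, with a median of -0.65. Podxl, a sialomucin that podocytes and some epithelia also make, had -1.69 (limma adjusted p = 4.28e-07). Mmrn2, an extracellular matrix protein of endothelium, had -1.10 (limma adjusted p = 0.000186). Gpihbp1, which holds lipoprotein lipase on capillaries, had -0.98 (limma adjusted p = 0.0204). Eng, a co-receptor of the transforming growth factor beta family, had -0.91 (limma adjusted p = 0.00111). The others called lower were Cd93, Arhgef15, Robo4, Icam2, Sox18, Ramp2 and Ptprb, between -0.86 and -0.53, named after their values were seen. Vwf, at 0.42, and Nostrin, at 0.11, were the tested genes of this list with a positive difference. Neither was called in the fit of all 12 arrays (limma adjusted p = 0.183 and 0.737). Without cHet vagina replicate 3, Vwf was called higher (limma adjusted p = 0.0364 in that fit). With the replicate number as a block the count was 12, Plvap being added (limma adjusted p = 0.0300). It was 7 without cHet uterus replicate 4 or without cHet vagina replicate 2, where Gpihbp1, Ramp2, Ptprb and Sox18 lost their calls. In cKO against cHet vagina 0 of the 21 were called.

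Transcription factors known in endothelium followed in the same comparison with 8 of 14 tested genes called lower and 1 higher, where 9.45% of all genes were called higher. Lmo2, an adaptor protein of the blood and endothelial transcription complexes, had -1.32 (limma adjusted p = 1.12e-05). The flow-responsive factor Klf2 had -1.0 (limma adjusted p = 0.00515). The ETS factor Ets1 had -0.99 (limma adjusted p = 3.98e-05). Klf4, which differentiating epithelia also express, was higher by 1.77 (limma adjusted p = 1.31e-06). Erg, another endothelial ETS factor, was above background on 0 arrays. With the replicate block 9 were lower, Foxo1 being added at -0.41 (limma adjusted p = 0.0457). The count was 6 without cHet uterus replicate 2 or 4 or cHet vagina replicate 2, 3 or 4, where Sox18 and Mef2c lost their calls. It was 7 without cHet uterus replicate 1 or 3. Sox18 is counted among the pan-endothelial genes too.

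Arterial, venous and lymphatic genes were read beside the members. Of 9 arterial genes tested, 4 were called lower in cHet vagina than in cHet uterus and 1 higher. Cxcl12, a chemokine that stromal cells also secrete, had -1.75 (limma adjusted p = 4.77e-06). The arterial connexin Gja4 had -1.33 (limma adjusted p = 7.41e-05) and Efnb2, the arterial ephrin, -1.23 (limma adjusted p = 5.78e-06). Hey1, which Notch signalling switches on in many tissues, was higher by 1.22 (limma adjusted p = 0.000810). Gja5, the remaining arterial gene called lower, had -0.57 (limma adjusted p = 0.0249). It lost its call without cHet uterus replicate 3 or 4 or cHet vagina replicate 1 or 2, where the count was 3. With the replicate block 5 arterial genes were lower, the endothelial Notch receptor gene Notch4 being added at -0.50 (limma adjusted p = 0.0425). Hey1 was also the single gene of the endothelial lists called between the vaginal genotypes in the fit without a block. It read 8.90, 8.71, 7.94 and 7.69 in cHet vagina, 6.66, 6.86, 6.92 and 6.86 in cKO vagina and 6.87, 7.41, 7.08 and 6.96 in cHet uterus. No cKO pool reached the range of cHet vagina, and the difference was -1.48 (SE 0.22, limma adjusted p = 0.00538). That call was lost when the background level was subtracted and in replicates 3 and 4 alone. Pdpn, of the lymphatic list, had -0.77 in cKO against cHet vagina and was not called (limma adjusted p = 0.262). Its pools did not overlap, which held for 4.33% of all genes. Of 26 alternatives, 1 called it, a block of replicates 1 and 2 against 3 and 4 (limma adjusted p = 0.0483 with that block).

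Of 5 venous genes tested, 3 were called lower in cHet vagina. They were Nr2f2, a venous fate factor that mesenchyme also expresses, at -1.13 (limma adjusted p = 0.000357), the apelin receptor Aplnr at -0.86 (limma adjusted p = 0.00241) and the chemokine-binding receptor Ackr1 at -0.49 (limma adjusted p = 0.0210). Among 6 lymphatic genes tested, 2 were lower and 1 higher. Lyve1, a hyaluronan receptor shared with some macrophages, had -1.75 (limma adjusted p = 1.07e-07), Thy1 -0.58 (limma adjusted p = 0.0475), and Pdpn, which epithelia also make, was higher by 0.83 (limma adjusted p = 0.0184). Prox1 and Flt4, the defining genes of lymphatic endothelium, were above background on at most 1 and 2 arrays and were not tested. Vwf, a gene of the venous list too, was called higher without cHet vagina replicate 3. Ackr1 lost its call without cHet uterus replicate 1, 2 or 3 or cHet vagina replicate 1. Thy1 lost it without cHet uterus replicate 1, 3 or 4 or cHet vagina replicate 1, 3 or 4, and Pdpn without cHet uterus replicate 1 or cHet vagina replicate 3 or 4.

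Genes of the VEGF and angiopoietin ligand lists were mostly not called in the fit without a block. Of 7 VEGF ligands and co-receptors tested, 2 were lower in cHet vagina, the VEGF co-receptor Nrp1 at -0.90 (limma adjusted p = 0.000279) and the ligand Vegfd at -0.76 (limma adjusted p = 0.0123). The other 4 ligands lay between -0.51 and -0.11, Vegfa, the main ligand of Kdr, being the lowest (limma adjusted p = 0.121). Vegfa was called lower with the replicate number as a block (limma adjusted p = 0.0357), which made 3 of 7, and without cHet uterus replicate 1. The co-receptor Nrp2 was not above background in either cHet group. The angiopoietins that bind Tek, Angpt1 and Angpt2, had -0.07 and -0.10 and were not called. In the same list Angptl1, an angiopoietin-like protein with a probe above background in 1 of 4 uterine pools, was higher by 2.62 (limma adjusted p = 2.58e-06). Between the vaginal genotypes 0 of these 10 ligands and co-receptors were called.

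**Figure D3:**
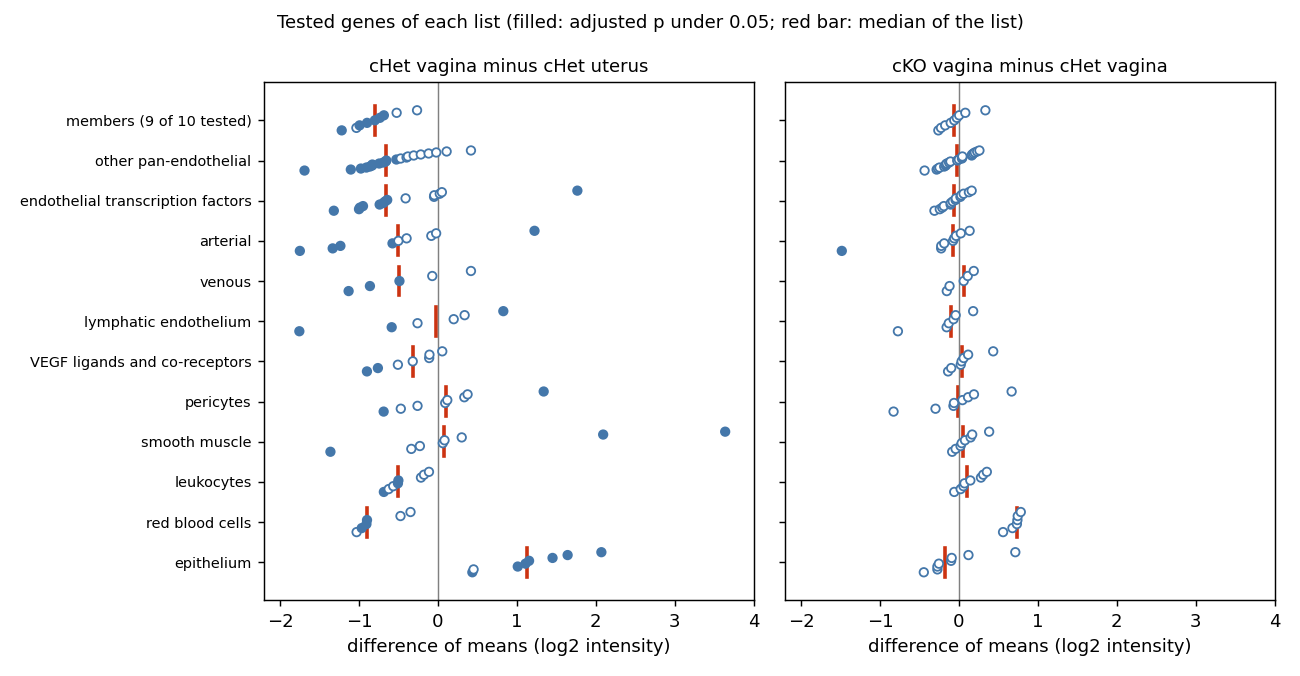
Difference of group means in log2 intensity for every tested gene of 12 gene lists, for cHet vagina minus cHet uterus (left) and cKO vagina minus cHet vagina (right). Filled points passed an adjusted p under 0.05 and the red bar is the median of a list, which is -0.80 for the members and -0.65 for the other pan-endothelial genes on the left. Epithelial genes lie to the right of 0 in the left panel, and Hey1 is the filled arterial point on the right.

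Markers of some other cells differed between the organs as well. Over all genes tested, 9.17% were called lower and 9.45% higher in cHet vagina than in cHet uterus. The mean log2 level of the 9 members was 7.5 to 7.83 over the uterine pools, 6.57 to 7.01 over cHet vagina and 6.49 to 6.94 over cKO vagina. That of 8 leukocyte genes was 6.16 to 6.62, 5.88 to 6.19 and 5.94 to 6.36 in the same order, with 3 of 8 called lower in cHet vagina than in cHet uterus and Ptprc, the pan-leukocyte gene, above background on 0 arrays. With the replicate block 5 leukocyte genes were lower, Coro1a and Laptm5 being added (limma adjusted p = 0.0333 and 0.0498). Without cHet vagina replicate 1 the count was 0, without cHet uterus replicate 2 or cHet vagina replicate 2 it was 1, and without cHet uterus replicate 3 or cKO vagina replicate 4 it was 5. For 6 red blood cell genes the level was 9.49 to 10.17, 8.90 to 9.27 and 9.07 to 11.24, with 3 of 6 called lower. That count was 1 without cHet uterus replicate 1, 2 or 4 or cHet vagina replicate 1. Of 4 platelet genes tested 1 was lower, Pf4 at -0.88 (limma adjusted p = 0.0111). Epithelial genes ran the other way, with 7 of 8 called higher and levels of 7.51 to 7.76, 8.69 to 8.99 and 8.55 to 8.97. Of 8 pericyte genes 1 was lower (Pdgfrb, -0.69) and 1 higher (Anpep, 1.34). Each count is 12.5% of the list, near the shares over all genes. Pdgfrb lost its call when cKO vagina replicate 4, any uterine pool but replicate 1 or any cHet vagina pool but replicate 4 was left out, and Notch3, at 0.38, was called higher with the replicate block (limma adjusted p = 0.0466). Of 8 smooth muscle genes 1 was lower (Des, -1.36) and 2 higher (Actg2, 3.64, and Myh11, 2.09). What part these cells have in the lower endothelial genes was not tested.

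Red blood cell genes were also read between the vaginal genotypes, with no test against the members. Their median difference of cKO from cHet vagina was 0.74 with 0 of 6 called, and the highest level, 11.24, belonged to cKO vagina replicate 3. Without that pool the median difference was 0.40, with 0 of 6 called. The members' mean level in that same pool was 6.94, the highest of the cKO pools.

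Within groups, the members varied together in part. Across the 12 arrays, after each gene's group means were removed, the 36 pairs of members had a median correlation of 0.32, from -0.51 to 0.88, and 27 of the 36 were above 0. The closest pairs were Flt1 with Egfl7 (0.88), Flt1 with Cldn5 (0.87) and Tek with Emcn (0.85). Cdh5 and Tie1 did not follow the mean of the other members (correlations of -0.18 and -0.01), while the remaining members had 0.47 to 0.89. These correlations describe arrays that share normalization and replicate sets and carry no test. The share of pairs above 0 over all genes was not computed, so the count of pairs has no background beside it. Pools numbered 3 and 4 stood apart from those numbered 1 and 2 on the second principal component of all genes, in every group, and the labels name no batch. With the groups in the fit, Egfl7 was higher by 1.03 in replicates 3 and 4 (SE 0.15, limma adjusted p = 0.000771) and Flt1 by 0.42 (SE 0.10, limma adjusted p = 0.0159). The other 7 members were not called, against 12.4% of all genes called in either direction. The lowest vaginal pools of Tek and Emcn were replicate 2 in both genotypes.

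**Figure D4:**
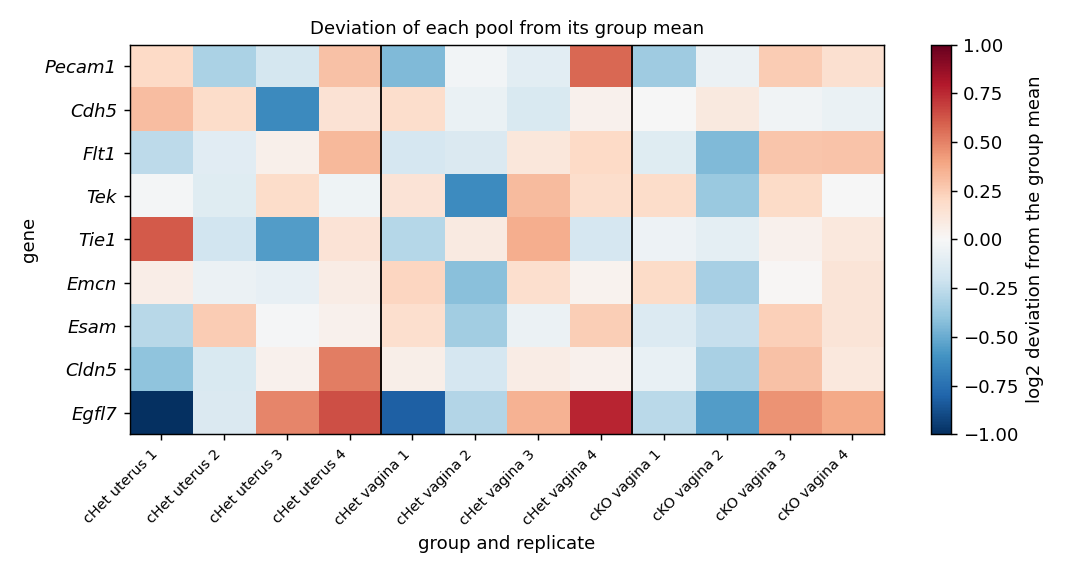
Deviation of each pool from the mean of its group, in log2 intensity, for the 9 tested endothelial genes (rows) in the 12 pools (columns); red is above and blue below the group mean. Egfl7 is above its mean in replicates 3 and 4 and below it in replicates 1 and 2 of every group, and in cHet vagina replicate 2 Tek stands out as low.

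The 10 genes outside the members whose deviations were most like the members' mean deviation were Matn2, Ddah1, Tlk1, Dkk3, Qk, Ptger3, Cd40, Ptpn1, Minar2 and Ttc29. Their correlations with that mean were 0.93 or more over the 12 arrays, given without a test. Of these 10 genes 0 belonged to the pan-endothelial list, and 7 of 10 differed between replicates 3 and 4 and replicates 1 and 2. Over all arrays without removing the group means, Matn2 and Dkk3 ran opposite to the members (correlations of -0.53 and -0.71). Both were higher in cHet vagina than in cHet uterus, by 1.46 (limma adjusted p = 0.00390) and 1.39 (limma adjusted p = 2.07e-05).

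Over the whole series, arrays of 1 group correlated at 0.972 to 0.991 across genes and no pair of arrays held identical values. The first principal component carried 48.3% of the variance and separated the uterus from the vagina, and the second carried 14.8%. Between 39.3% and 45.4% of the probes of an array were above background. In cHet vagina against cHet uterus 1023 genes were called lower and 1054 higher, or 704 and 1126 without normalization between arrays. In cKO against cHet vagina 37 were called lower and 6 higher, or 20 and 11 without it. Organ markers differed between the tissues, with Hoxa11 lower in cHet vagina by a difference of -2.53, Hoxa13 higher by 0.83 and Isl1 higher by 6.01, the last above background in 1 of 4 uterine pools. Trp63 itself was higher in cHet vagina than in cHet uterus by 4.99 (limma adjusted p = 3.26e-11).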

How the data were processed

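Expression was measured on 1-colour Illumina mouse bead arrays in 12 pools, 4 per group, as the labels give them. For each array the deposited table lists 45281 probes with a linear intensity, which the authors had brought to nearly the same mean as far as the values show, by a method that the sources used here do not give. Another 24 per-sample columns, 12 of them signals, have names found in no label and were left out.

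Background was estimated per array as the mode of the intensities (69.2 to 90.7, SD 2.30 to 2.73 from lower values). The normexp correction, an offset of 16, quantile normalization and log2 followed; the offset understates the fold of dim probes. Above background means past the 99% point of the estimated background, and probes that passed on at least 4 of 12 arrays were kept: 20675, of which 17617 had a single symbol. In the platform annotation 34885 probes have a single symbol, 18 have several and 10378 have none; 78 could not be matched to the reference table by gene identifier, and 0 symbols changed. Each gene was represented by its kept probe of highest mean, giving 11152 genes; 13 of the 17 member probes were kept, and 3 members had several.

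Group means were fitted over all 12 arrays with lmFit and eBayes of limma 3.58.1 in R 4.3.3, with 15.8 degrees of freedom, two-sided, with Benjamini-Hochberg adjustment, over genes and again over probes. Precision is limited by the number of arrays. The calls were tested on simulated data. The outcome of that run is not given here, so it adds no support to the calls. Alternatives changed the background correction, offset, normalization, probe filter, choice of probes, arrays fitted, blocks and weights, and left out each array in turn. A list's level in a pool is the mean log2 value of its tested genes. No set test was run.

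Replicate numbers run from 1 to 4 in each group. For cHet vagina and cHet uterus, deviations of pools with the same number correlated at 0.142, 0.117, 0.378 and 0.432 across genes. All were over 0.1, and the numbers were taken to pair those samples as an assumption. The main fit had no block for these pairs, and the replicate block was an alternative. The cHet vagina pools numbered 1 and 2 were each most like a uterine pool of another number. Pools 3 and 4 also stood apart from pools 1 and 2 in every group, which these correlations do not separate from pairing. Only the data bear on this, because the labels do not say what a shared number means. For the other comparisons 1 pair each was under 0.1 (0.0661 and 0.0743).

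The members and gene lists were chosen with earlier results of these data known. The genes named were all members, up to 4 called genes of each list with the largest change, the 10 most alike genes, Trp63 and the organ markers, and the choice of those to print was made with their values in view. Other genes were named outside this rule after their values were seen: further called genes of a list, genes not called or not tested (among them Vwf, Nostrin, Vegfa, Angpt1, Angpt2, Col4a1, Col4a2, Erg, Prox1, Flt4, Nrp2 and Ptprc), and genes whose call an alternative changed.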

Additional observations from a re-analysis of the deposited data

Results flagged for a closer look

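Cldn5 in cHet vagina replicate 2 read 5.30, below the other pools of that group, which lay between 5.51 and 5.54. The gap to the nearest pool divided by the range of the group was 0.872, past Dixon's critical value for 4 samples. Of 27 combinations of a tested member and a group, 1 passed it, and chance alone flags about 1 group in 20. Without that pool Cldn5 was still called lower in cHet vagina than in cHet uterus.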

How the results depend on the processing

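Each result was recomputed under 26 alternatives. Between the vaginal genotypes 0 members and 0 other pan-endothelial genes were called under any of them, while the count over all genes (43) was 28 with the background level subtracted, 25 with probes above background on all 12 arrays, 77 with a replicate block, 94 with a block of replicates 1 and 2 against 3 and 4, 72 in replicates 1 and 2 alone, 13 in replicates 3 and 4 alone, and 21 to 46 with 1 array left out (21 when the pool left out was replicate 1 of cHet vagina, and 23 when it was replicate 2 of cHet vagina or replicate 1 of cKO vagina). For cHet vagina against cHet uterus 5 to 8 members were called. Their median was -0.45 without background correction, the other pan-endothelial count was 7 with the background level subtracted and 7 to 11 with 1 array left out, and all genes called fell from 2077 to 1328 in replicates 1 and 2 alone, with fewer samples. For cKO vagina against cHet uterus the members' median was -0.46 without background correction, -0.60 with an offset of 50, -0.98 with the background level subtracted and -0.51 without normalization between arrays, where 4 members and 7 other pan-endothelial genes were called, and all genes called fell from 2051 to 1312 in replicates 1 and 2 alone. Without normalization the median of all genes was 0.17 in that comparison and 0.11 between the vaginal genotypes, and relative to it the members' medians were -0.69 and -0.06. The cause of these shifts was not tested.

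Emcn, Esam and Cldn5 were called lower than in cHet uterus under all 26 alternatives in both vaginal groups. Over the members and alternatives, 0 called differences turned sign; 4 of 233 lost a call and 10 gained one in cHet vagina against cHet uterus, and 12 lost and 4 gained one in cKO vagina against cHet uterus. Tek in cHet vagina was also called when replicate 3 of cHet vagina was left out, and Egfl7 when replicate 1 of cHet uterus or replicate 4 of cHet vagina was. The replicate block changed no other member's call in cHet vagina against cHet uterus. What same-numbered pools of the vaginal genotypes share beyond the number is not stated by the labels. Tie1 could not be tested where probes had to be above background on all 12 arrays. Signal over background limits Kdr, Tie1 and the further probes of Flt1, Egfl7 and Pecam1. The fixed alternatives and the members were chosen with earlier results known. The counts and medians of the other gene lists with the replicate block and with 1 array left out were chosen after seeing the data.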

Other observations

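Genes that surround the vessel were read in the same comparisons. Of 12 tested partners of endothelial junctions and basement membrane, which other cells share, 2 were lower in cHet vagina than in cHet uterus and 2 were higher. The scaffold gene Tjp1 had -0.80 (limma adjusted p = 0.00849) and the adhesion gene Jam3 -0.73 (limma adjusted p = 0.0298), while the epithelial junction genes F11r and Ocln had 0.73 (limma adjusted p = 0.00524) and 0.45 (limma adjusted p = 0.0167). Jam3 lost its call without cHet uterus replicate 1, 3 or 4 or cHet vagina replicate 1 or 2, and Ocln without cHet uterus replicate 3 or 4 or cHet vagina replicate 2. The collagens of the vascular basement membrane, Col4a1 and Col4a2, had -0.08 and -0.26 and were not called. Of 7 hypoxia-response genes 3 were higher in cHet vagina: Egln3 by 0.69, Ankrd37 by 0.65 and Ldha by 0.51. Only Egln3 was called without cHet uterus replicate 3 or 4 or without cHet vagina replicate 1 or 2, and Vegfa, a gene of this list too, was called lower with the replicate block. Of 9 mesenchyme genes 3 were higher, Dpt by 2.50, Twist2 by 1.81 and Dcn by 0.48. With the replicate number as a block 5 were higher, Col1a1 by 0.95 (limma adjusted p = 0.00223) and Col1a2 by 0.89 (limma adjusted p = 0.0151) being added, and these 5 were also called without cHet uterus replicate 1. Dcn lost its call without cHet uterus replicate 2 or cHet vagina replicate 1, 3 or 4. Between the vaginal genotypes 0 genes of these lists were called.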
